A study of Mus musculus with 4 samples.

Results

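The sphingosine-1-phosphate (S1P) signalling genes S1pr1, Spns2, Sphk1, Sphk2, Sgpl1, Gnai2 and Gna13 were followed in endothelial cells of mouse embryonic brain. These 7 genes were chosen by symbol among the 17905 genes that the deposited tables list, of which 14100 are listed in both tables. Of the 7 genes, 6 are in both tables and Sphk1 is in one. RNA came from brain endothelial cells of C57BL/6 embryos at embryonic day 18, in 2 libraries of the genotype STINGECKO (replicates 1 and 2) and 2 of wild type (WT, replicates 3 and 5). STING, the product of Tmem173, relays the sensing of cytosolic DNA, and ECKO is a usual short form for an endothelial cell knockout. The Cre line, its promoter and any allele that the WT embryos share with the knockout are not stated in the labels. These do not tie libraries to animals, and the design speaks of triplicates where 2 libraries per genotype were analysed here. One deposited table holds STINGECKO 1 and WT 3, the other STINGECKO 2 and WT 5. The p-values below therefore measure only the spread between these libraries, which may be technical in part. The 2 STINGECKO libraries differ in sex-linked reads, given below, and so are not repeats of one RNA sample.

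S1P is a lipid made inside cells when a sphingosine kinase (Sphk1 or Sphk2) phosphorylates sphingosine. Endothelial cells release it through the exporter Spns2, and the lyase Sgpl1 destroys it irreversibly. Outside the cell it binds G protein-coupled receptors, of which S1pr1 is the main endothelial one. S1pr1 couples to Gi proteins such as Gnai2 and drives Rac activity, cortical actin and junction stability, which in brain vessels helps to keep the barrier closed. The receptors S1pr2 and S1pr3 can also couple to G12/13 proteins such as Gna13, which act on the actin cytoskeleton. The comparison asked whether these genes differ between endothelial cells with the STINGECKO genotype and WT cells.

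The libraries held 18610298 and 22169261 listed reads in STINGECKO 1 and 2 and 21472677 and 20591981 in WT 3 and 5. Levels are given in CPM (reads of a gene per 1000000 listed reads) scaled by TMM, a factor per library that evens out composition. The 18 endothelial markers were all detected in every library, with summed levels from 32700 to 34500 CPM. Summed pericyte and smooth muscle markers were higher in STINGECKO, at 10100 and 10500 CPM against 8180 and 7580 in WT, with 4 of 10 genes (Rgs5, Kcnj8, Anpep and Vtn) above and 2 (Cspg4 and Acta2) below both WT libraries. Summed neuron markers were lower, at 63.7 and 42.3 against 135 and 87.1 CPM, with 4 of 8 genes below and 0 above. Summed astrocyte markers were at 409 and 295 against 490 and 387 CPM, an overlap, with 5 of 10 genes below and 0 above. Microglia and macrophage markers summed to 589, 436, 581 and 1620 CPM in STINGECKO 1, STINGECKO 2, WT 3 and WT 5. Of these 13 genes, 1 lay above and 3 below both WT libraries. Over all genes tested, both STINGECKO libraries lay above both WT libraries in 15.6% and below them in 18.6%. Among the genes of these marker lists in both tables, Acta2, Acsbg1 and Syn1 had 0 reads in both STINGECKO libraries. Snap25 had 0 in STINGECKO 1, and Aqp4, Aldh1l1, Slc1a2, Gap43 and Tmem119 in STINGECKO 2, while WT had none at 0. Among those in one table only, Tagln had 0 reads in STINGECKO 1, Nefm in STINGECKO 2 and Myh11 in WT 3. Tmem173 did not separate the genotypes, with 67, 182, 97 and 130 reads in STINGECKO 1, STINGECKO 2, WT 3 and WT 5. The genotypes below are therefore those of the labels. A whole-gene count takes in exons outside any deleted part, and why Tmem173 did not separate the genotypes was not tested. STINGECKO 2 stood apart, as 1855 of the 14100 genes (13.2%) had 0 reads there against 337 to 740 in the other libraries. STINGECKO 1 also differed from the rest in sex, with 3623 reads of the Y-linked Ddx3y and 0 of Xist. Xist had 876, 2347 and 3374 reads in STINGECKO 2, WT 3 and WT 5, or 40.1, 108 and 162 CPM. Ddx3y had 0 reads in WT 3 and is not listed for STINGECKO 2 and WT 5. The parts that sex, other cells and the zeros of STINGECKO 2 play in the results were not tested.

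S1pr1 was abundant and nearly level across the libraries, and none of the genes passed the genotype test. S1pr1, the Gi-coupled receptor (ENSMUSG00000045092, chromosome 3, 115710433 to 115715072, minus strand, GRCm38, 2 exons), had 5271 reads in STINGECKO 1, 6940 in STINGECKO 2, 5414 in WT 3 and 5734 in WT 5. Scaled, these were 287, 318, 249 and 275 CPM. Both STINGECKO libraries lay above both WT libraries, by little: the highest level was 1.28 times the lowest. The genotype means were 302 ± 22.2 CPM in STINGECKO and 262 ± 18.6 in WT (± SD, n = 2 each), and the log2 fold change was 0.21 (SE 0.20; edgeR quasi-likelihood test, Benjamini-Hochberg adjusted p = 1.00). Among 4051 genes with a mean of at least 50 CPM, 11.9% had a smaller range over the 4 libraries than the 0.35 of S1pr1 on the log2 scale, where the median range was 0.78.

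Gnai2, the Gi alpha subunit that S1pr1 can use (ENSMUSG00000032562, chromosome 9, 107614125 to 107635367, minus strand, 9 exons in its longest transcript), had the highest read counts of the 7 genes. It had 8997 and 19026 reads in STINGECKO 1 and 2 and 9772 and 7457 in WT 3 and 5. The levels were 489, 872, 449 and 358 CPM, so STINGECKO 2 was high and the other libraries lay close together, with no overlap of the genotypes. The means were 680 ± 270 CPM in STINGECKO and 403 ± 64.6 in WT (± SD, n = 2 each), and the log2 fold change was 0.76 (SE 0.33; edgeR quasi-likelihood test, adjusted p = 1.00). Without STINGECKO 2 the log2 fold change was 0.28.

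The kinases differed sharply in level. Sphk1, the mostly cytosolic kinase (ENSMUSG00000061878, chromosome 11, 116530925 to 116536674, plus strand), had 3 reads in STINGECKO 1 and 2 in WT 3, or 0.163 and 0.0919 CPM. Their 95% counting intervals (exact binomial) were 0.0336 to 0.477 and 0.0111 to 0.332 CPM. The table of STINGECKO 2 and WT 5 does not list Sphk1, which there means 0 reads in at least one library and at most 4 in the other. No difference was detectable at this depth, and no fold is given, since these counts do not exceed the 3 reads that a count of 0 allows. Such intervals cover counting error only.

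Sphk2, the kinase found largely in the nucleus and mitochondria (ENSMUSG00000057342, chromosome 7, 45709467 to 45718002, minus strand, 7 exons in its longest transcript), had 512 and 91 reads in STINGECKO 1 and 2 and 1961 and 1251 in WT 3 and 5. The levels were 27.8, 4.17, 90.1 and 60.0 CPM. Both STINGECKO libraries lay below both WT libraries, and STINGECKO 2 was again far from its partner. The means were 16.0 ± 16.7 CPM in STINGECKO and 75.0 ± 21.3 in WT (± SD, n = 2 each), and the log2 fold change was -2.23 (SE 0.96; edgeR quasi-likelihood test, adjusted p = 1.00). Without STINGECKO 2 it was -1.43, and without STINGECKO 1 it was -4.18. Exons of Sphk2 share 539 bases with Dbp and 373 with Rpl18 on the opposite strand, and with no strand setting given, reads from such bases cannot be assigned to one gene. Dbp had 123 reads in STINGECKO 1 and 120 in WT 3 and is not listed for STINGECKO 2 and WT 5. Rpl18 had 713, 976, 1199 and 1031 reads in STINGECKO 1, STINGECKO 2, WT 3 and WT 5. These are counts of whole genes, and the part of the shared bases in the Sphk2 reads was not tested.

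Spns2, the endothelial S1P exporter (ENSMUSG00000040447, chromosome 11, 72451638 to 72489904, minus strand, 13 exons in its longest transcript), was the most uneven of the genes. It had 593 and 45 reads in STINGECKO 1 and 2 and 530 and 1681 in WT 3 and 5, or 32.2, 2.06, 24.3 and 80.6 CPM. STINGECKO 1 and WT 3 lay in the middle, STINGECKO 2 was low and WT 5 high, and the genotypes overlapped. The means were 17.2 ± 21.3 CPM in STINGECKO and 52.5 ± 39.8 in WT (± SD, n = 2 each), and the log2 fold change was -1.61 (SE 1.33; edgeR quasi-likelihood test, adjusted p = 1.00). It was -0.70 without STINGECKO 2 and -0.51 without WT 5. WT 5 was also the library with the highest macrophage markers, whose part in its Spns2 level was not tested. In bulk RNA, fewer cells of a type and less RNA per cell cannot be told apart. Exons of Spns2 share 131 bases with Mybbp1a on the opposite strand. Mybbp1a had 2724, 3481, 3653 and 4291 reads as a whole gene in STINGECKO 1, STINGECKO 2, WT 3 and WT 5. The part of the shared bases in the Spns2 reads was not tested.

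Sgpl1, the S1P lyase (ENSMUSG00000020097, chromosome 10, 61098642 to 61147703, minus strand, 15 exons in its longest transcript), followed the order of Spns2. Its reads were 395 and 33 in STINGECKO 1 and 2 and 449 and 809 in WT 3 and 5, or 21.5, 1.51, 20.6 and 38.8 CPM. STINGECKO 1 and WT 3 lay close together, with overlapping 95% counting intervals of 19.4 to 23.7 and 18.8 to 22.6 CPM. The means were 11.5 ± 14.1 CPM in STINGECKO and 29.7 ± 12.8 in WT (± SD, n = 2 each), and the log2 fold change was -1.37 (SE 1.31; edgeR quasi-likelihood test, adjusted p = 1.00). It was -0.47 without STINGECKO 2.

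Gna13, a subunit of the G12/13 family (ENSMUSG00000020611, chromosome 11, 109362831 to 109401369, plus strand, 4 exons in its longest transcript), had its extremes within one genotype. It had 949 reads in STINGECKO 1, 124 in STINGECKO 2, 315 in WT 3 and 501 in WT 5, or 51.6, 5.68, 14.5 and 24.0 CPM. STINGECKO 1 was the highest library, STINGECKO 2 the lowest, and both WT libraries lay between them. The log2 fold change was 0.57 (SE 1.12; edgeR quasi-likelihood test, adjusted p = 1.00), and it turned from 1.42 without STINGECKO 2 to -1.77 without STINGECKO 1. The antisense gene Gm11696 shares 151 exon bases with Gna13 and had 2, 261, 97 and 1 reads in STINGECKO 1, STINGECKO 2, WT 3 and WT 5.

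**Figure D1:**
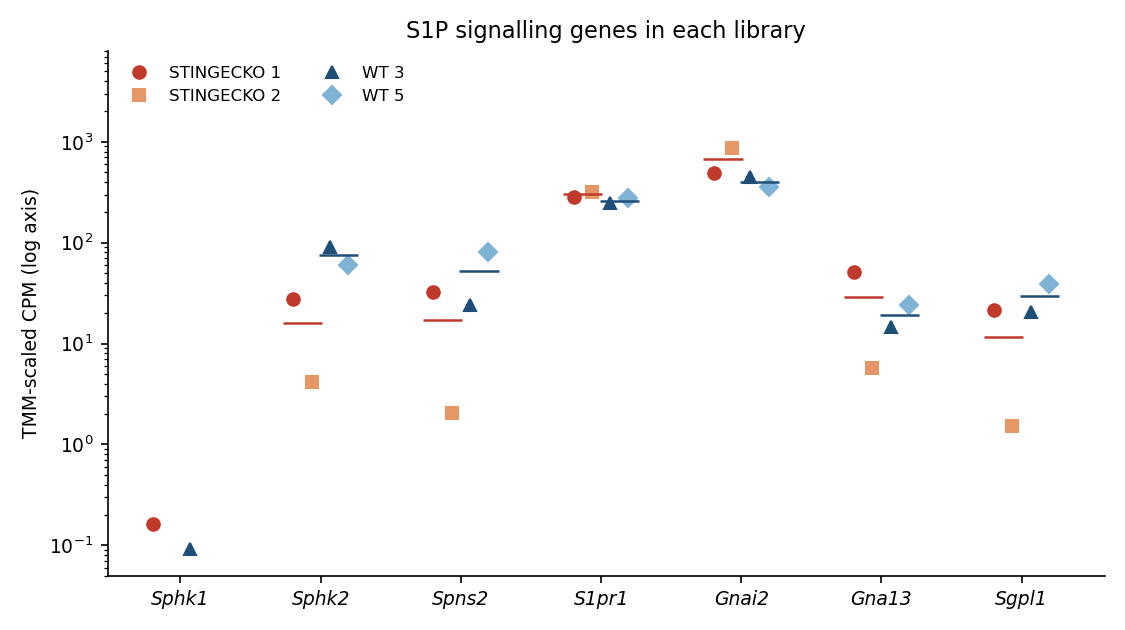
Level of each S1P signalling gene in each library in TMM-scaled CPM (log axis); points are single libraries and horizontal bars are the means of the 2 libraries of a genotype. S1pr1 lies between 249 and 318 CPM in all 4 libraries, Sphk2, Spns2, Gna13 and Sgpl1 are lowest in STINGECKO 2, and Sphk1 is shown for the 2 libraries of the table that lists it.

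Over all genes, 0 of 13365 (0.0%) passed the edgeR quasi-likelihood test at an adjusted p under 0.05, and 650 (4.86%) had an unadjusted p under 0.05. DESeq2 called 87 genes (0.651%) and the edgeR likelihood ratio test 33 (0.247%). Of the 6 S1P signalling genes tested, 0 were called by any of these, and 0 had an unadjusted p under 0.05 in the quasi-likelihood test. Sphk2 and Gnai2 had an unadjusted p under 0.05 in DESeq2 (0.0134 and 0.0178) and in limma-voom (0.0122 and 0.0487). Sphk2 did so too in the likelihood ratio test (0.0252) and in the quasi-likelihood fit blocked by deposited table (0.0224). No share over all genes is given for these fits. The smallest adjusted p for any of them over 15 alternative fits was 0.184, for Sphk2 without STINGECKO 1. The genotypes did not overlap in 3 of the 6 genes (S1pr1 and Gnai2 higher, Sphk2 lower in STINGECKO), beside 34.2% of all genes tested. Of the 6 log2 fold changes, 3 were below 0, beside 51.3% of all genes tested. For no overlap in a single direction the background was 15.6% for STINGECKO higher and 18.6% for STINGECKO lower. With one library left out, where 1 library faces 2, the count was 6 without STINGECKO 1, 4 without STINGECKO 2, 5 without WT 3 and 3 without WT 5. The shares over all genes in the same fits were 77.8%, 64.9%, 61.9% and 61.9%.

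**Figure D2:**
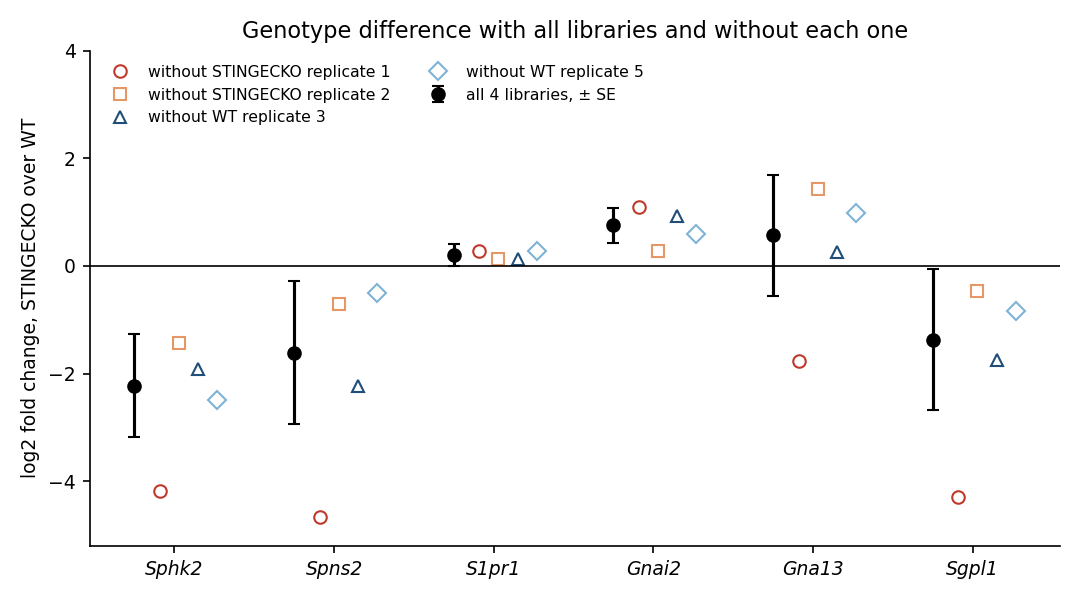
Log2 fold change of STINGECKO over WT for the 6 tested genes, with all 4 libraries (black, ± SE) and without each library in turn (open symbols). S1pr1 stays between 0.13 and 0.28, while Sphk2, Spns2 and Sgpl1 lie between -4.67 and -0.47 and Gna13 changes sign without STINGECKO 1.

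The lower genes shared a low level in STINGECKO 2. Sphk2, Spns2, Sgpl1 and Gna13 each averaged 10 to 100 CPM in the other libraries, and in STINGECKO 2 they were 14.2, 22.2, 17.8 and 5.29 times below that average. All 4 were thus at least 4-fold below it and 3 of them at least 10-fold below it. Of 6598 genes at that level, 16.0% were at least 4-fold and 10.5% at least 10-fold below the others in STINGECKO 2. The share at least 4-fold below was 3.83% for STINGECKO 1, 5.05% for WT 3 and 3.39% for WT 5, and 0 of the 4 genes were that low in any of these libraries. At least 10-fold below were 1.61%, 2.18% and 1.33% of genes in these libraries. The genes were counted after their values had been seen, so no test was made. Above 100 CPM, where S1pr1 and Gnai2 lie, 0.994% of genes were at least 4-fold low in STINGECKO 2. Among the other genes of the pathway lists described below, 6 of 34 at 10 to 100 CPM were at least 4-fold low there: Acer3, Adcy4, Adcy6, Grk5, Lpar1 and S1pr2. Of these, Acer3, Adcy6 and Grk5 lay below both WT libraries in STINGECKO 1 too, and Acer3 was at least 10-fold low there.

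**Figure D3:**
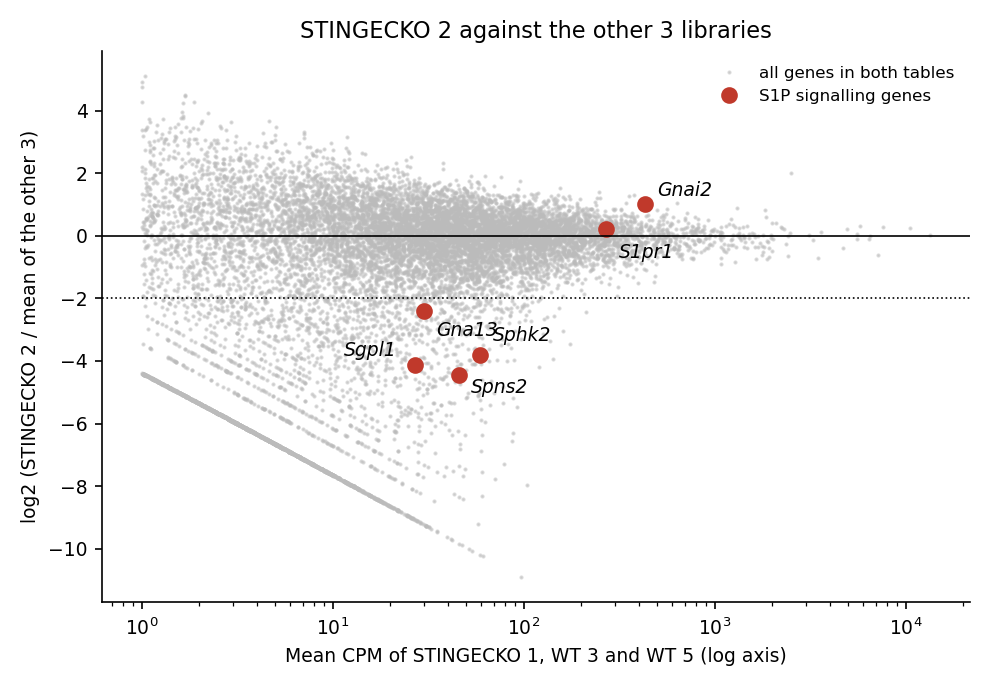
Log2 ratio of STINGECKO 2 to the mean of the other 3 libraries against that mean (CPM, log axis); grey points are all genes in both tables with a mean of at least 1 CPM, and red points are the 6 S1P signalling genes. The dotted line marks a 4-fold lower level, below which Sphk2, Spns2, Sgpl1 and Gna13 lie among many other genes of 10 to 100 CPM; diagonal bands are genes with 0, 1, 2 and more reads.

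The sequences before the start sites of these 4 genes are shown to let a reader compare genes that were low in the same library. They come from RefSeq (GRCm38.p6), which gave start sites for 5 of the 7 genes, and are printed 5′ to 3′ on the gene's strand, without bases in annotated exons. The starts shown for Spns2 (72475027) and Sphk2 (45715207) lie inside the genes; a further Sphk2 start, at 45718002, has exons in most of the window before it and is not shown. Capitals mark the GC box GGGCGG or its reverse complement CCGCCC, a motif bound by Sp1 family factors.
Sphk2, chr7:45715208-45715456, minus strand: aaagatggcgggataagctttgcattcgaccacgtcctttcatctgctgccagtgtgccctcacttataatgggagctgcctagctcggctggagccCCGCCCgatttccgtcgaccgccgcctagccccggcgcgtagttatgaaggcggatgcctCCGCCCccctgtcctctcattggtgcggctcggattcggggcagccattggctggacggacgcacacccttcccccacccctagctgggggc
Sgpl1, chr10:61147704-61147934, minus strand: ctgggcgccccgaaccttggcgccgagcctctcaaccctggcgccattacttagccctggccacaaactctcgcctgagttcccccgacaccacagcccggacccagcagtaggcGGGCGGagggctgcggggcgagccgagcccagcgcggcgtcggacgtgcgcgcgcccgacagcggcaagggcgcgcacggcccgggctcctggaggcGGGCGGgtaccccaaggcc
Gna13, chr11:109362544-109362793, plus strand: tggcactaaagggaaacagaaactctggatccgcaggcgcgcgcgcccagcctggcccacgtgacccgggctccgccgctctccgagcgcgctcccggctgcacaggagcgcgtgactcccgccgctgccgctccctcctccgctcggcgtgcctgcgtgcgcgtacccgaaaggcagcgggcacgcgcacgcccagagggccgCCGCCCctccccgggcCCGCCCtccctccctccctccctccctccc
Spns2, chr11:72475028-72475277, minus strand: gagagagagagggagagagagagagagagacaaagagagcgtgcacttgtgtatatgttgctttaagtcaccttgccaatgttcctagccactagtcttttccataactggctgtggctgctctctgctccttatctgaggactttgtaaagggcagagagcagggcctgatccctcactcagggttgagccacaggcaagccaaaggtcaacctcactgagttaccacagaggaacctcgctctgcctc
The GC box occurs 2 times in each of the first 3 sequences and 0 times in that of Spns2, searched on both strands. It occurs in 32.7% of 32851 RefSeq windows of 250 bases. In full windows of that length, those of Sphk2, Sgpl1, Gna13 and Spns2 held it 2, 3, 2 and 0 times. The full windows of Sphk2, Sgpl1 and Gna13 were 64.0%, 74.8% and 76.0% G or C, that of Spns2 was 51.6%, and the median of all windows was 52.4%. The Spns2 window lies inside the gene, so the sequence before its outer end was not examined. Any part of the motif in the low levels was not tested.

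Levels of different genes were compared per kilobase of annotated exon. Gnai2 ranged from 94.6 to 231 CPM per kb over the libraries and S1pr1 from 81.6 to 104, so their ranges overlapped. Well below came Sphk2 at 1.00 to 21.7, Spns2 at 0.505 to 19.7, Gna13 at 0.885 to 8.04 and Sgpl1 at 0.246 to 6.31 CPM per kb, whose ranges overlapped one another. Sphk1 was lowest, at 0.0342 and 0.0192 CPM per kb in STINGECKO 1 and WT 3, from 3 and 2 reads, where Sphk2 stood at 6.69 and 21.7 CPM per kb. With the longest transcript in place of all exons, Gnai2 ranged from 161 to 394 CPM per kb and no longer overlapped S1pr1.

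S1pr1 was not the only S1P receptor with many reads. All libraries also held pericyte markers, and which cells the reads of each receptor came from was not tested. S1pr3, a receptor of vascular cells that couples to several G proteins, stood at 79.7, 68.5, 67.6 and 51.6 CPM per kb in STINGECKO 1, STINGECKO 2, WT 3 and WT 5. The ratio of S1pr1 to S1pr3 per length was 1.18 and 1.52 in STINGECKO and 1.21 and 1.75 in WT. S1pr4, a receptor known mainly from blood cells, was at 10.5, 5.43, 6.47 and 5.06 CPM per kb. S1pr2, a receptor that can couple to G12/13 proteins, had 369, 6, 128 and 368 reads and 2.52, 0.0345, 0.738 and 2.21 CPM per kb, and it was again low in STINGECKO 2. S1pr5 was listed in neither table. Lpar6 and Lpar4, receptors of the related lipid lysophosphatidic acid, were at 81.4, 67.6, 72.5 and 76.7 CPM and at 51.9, 33.6, 52.0 and 31.5 CPM. Of the 6 tested genes in this list of other receptors, 0 were called, 3 had a log2 fold change above 0 and 3 below, and the median was 0.02, beside -0.02 over all genes tested.

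Gnai2 was the main Gi alpha subunit per length. Gnai3 stood at 59.1, 22.7, 52.3 and 42.7 CPM per kb and Gnai1 at 7.73, 17.0, 2.48 and 7.43. Gnai2 exceeded Gnai3 by 2.19, 2.27 and 2.21 times in STINGECKO 1, WT 3 and WT 5 and by 10.2 times in STINGECKO 2. Gna12, the partner of Gna13 in the G12/13 family, was at 20.2 and 16.7 CPM per kb in STINGECKO and 11.7 and 11.2 in WT, above Gna13 in every library. The ratios of S1pr1 to S1pr2, S1pr3 and S1pr4 and of Gnai2 to Gnai1 and Gnai3 overlapped between the genotypes. Exact permutation tests of these 5 ratios over the 4 libraries (two-sided) gave p of 0.667 or 1.00 and an adjusted p of 1.00 each, in a design whose smallest p is 0.333.

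**Figure D4:**
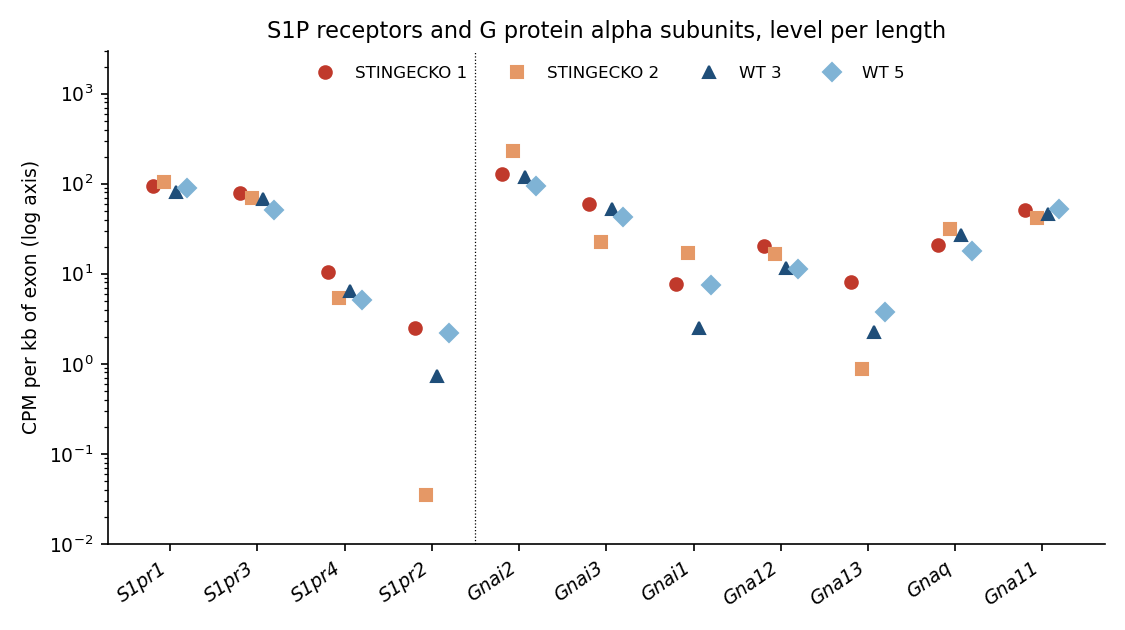
CPM per kilobase of exon (log axis) for the 4 listed S1P receptors, left of the dotted line, and 7 G protein alpha subunits in each library. S1pr1 and S1pr3 lie close together, S1pr2 and Gna13 are lowest in STINGECKO 2, and Gnai2 lies above Gnai3 and Gnai1 in every library.

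The rest of the pathway was read from 8 lists holding 91 listed genes, of which 89 were tested. None passed the adjusted edgeR quasi-likelihood test (0 called), and 4 of the 89 had an unadjusted p under 0.05, beside 4.86% of all genes tested. Their genotypes did not overlap in 30 genes, 19 higher and 11 lower in STINGECKO, near the background of 34.2%. The median log2 fold change was 0.09, beside -0.02 over all genes tested.

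Export and carrier genes were below 0 in 4 of 6 tested genes, with 0 called and a median log2 fold change of -0.27. Abca1, a lipid exporter that can also release S1P, was at 382 and 346 CPM in STINGECKO and 441 and 406 in WT. Abcg2, a barrier efflux pump, was at 244 and 172 against 271 and 273 CPM, and Abca7 at 43.8 and 33.9 against 31.9 and 44.0. Mfsd2a, a lysophospholipid transporter of brain endothelium, had a log2 fold change of -0.32 (SE 0.17). Genes of S1P removal were above 0 in 3 of 4 tested genes, with 0 called and a median of 0.48, which was -0.51 without STINGECKO 1 and 1.74 without WT 5. Plpp3, a phosphatase of extracellular lipid phosphates, was the highest of them at 145, 164, 183 and 106 CPM. Plpp1 was at 22.4, 10.8, 21.9 and 27.0 CPM. Sgpp1, an intracellular S1P phosphatase, had 402 and 296 reads in STINGECKO and 29 and 379 in WT, so that WT 3 stood apart. Plpp2 had 116 and 0 reads in STINGECKO and 0 and 45 in WT.

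Genes that supply sphingosine had a median log2 fold change of 0.05, with 10 of 18 tested genes above 0 and 0 called. The genes of highest level were Degs1, a desaturase of ceramide synthesis (318, 380, 388 and 449 CPM in STINGECKO 1, STINGECKO 2, WT 3 and WT 5), Cers2, a ceramide synthase (325, 256, 336 and 274), Sgms1, a sphingomyelin synthase (253, 263, 218 and 239), and Acer2, a Golgi ceramidase (225, 267, 220 and 240). None of these spanned as much as Sphk2, Spns2, Sgpl1 or Gna13. A pair had an unadjusted p under 0.05. Smpd1, acid sphingomyelinase, was at 198 and 266 CPM in STINGECKO and 120 and 76.6 in WT, a log2 fold change of 1.24 (SE 0.33; edgeR quasi-likelihood test, adjusted p = 0.971). Acer3, an alkaline ceramidase, had 8 and 17 reads in STINGECKO and 334 and 302 in WT, both STINGECKO libraries far below both WT libraries. Its log2 fold change was -4.60 (SE 1.28; edgeR quasi-likelihood test, adjusted p = 0.971), from -5.08 to -4.26 when each library was left out. DESeq2 called Acer3 (adjusted p = 0.0297) as 1 of 89 pathway genes tested, beside 0.651% of all genes tested. The edgeR likelihood ratio test (adjusted p = 0.171) and limma-voom (adjusted p = 0.772) did not call it.

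The other G protein subunits were above 0 in 9 of 13 tested genes, with 0 called and a median log2 fold change of 0.19. Gnb1, a beta subunit, was at 1110 and 1319 CPM in STINGECKO and 1101 and 1034 in WT. Gng11, a gamma subunit, was at 492 and 892 against 532 and 470 CPM, Gnb4 at 722 and 464 against 516 and 609, and Gng12 at 269 and 271 against 224 and 217. Gng11 thus shared with Gnai2 a high value in STINGECKO 2. G protein effectors were above 0 in 13 of 20 genes, with 0 called and a median of 0.17. Rac1, the GTPase that S1pr1 activates through Gi, was at 350 and 259 CPM in STINGECKO and 124 and 164 in WT. Its log2 fold change was 1.08 (SE 0.28; edgeR quasi-likelihood test, adjusted p = 0.971) and ranged from 0.84 to 1.30 with each library left out. Cdc42, a GTPase of actin control, was at 1539 and 1459 against 1416 and 1610 CPM, and Wwtr1, a transcriptional coactivator, at 636 and 540 against 609 and 607.

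Genes of receptor traffic and control were above 0 in 6 of 13 tested genes, with 0 called and a median log2 fold change of -0.01. Grk5, a kinase that desensitises G protein-coupled receptors, had 216 and 119 reads in STINGECKO and 951 and 576 in WT, a log2 fold change of -2.05 (SE 0.79; edgeR quasi-likelihood test, adjusted p = 1.00). Stat3 was at 401, 255, 428 and 316 CPM, Dnm2, the dynamin of receptor uptake, at 359, 167, 305 and 222, Rgs3 at 203, 266, 281 and 208 and Rgs4 at 464, 254, 291 and 357. Klf2, a flow-induced factor known to drive S1pr1 in several cell types and picked with its values already seen, stood at 126 and 138 CPM in STINGECKO and 101 and 83.6 in WT. Its log2 fold change was 0.51 (SE 0.28; edgeR quasi-likelihood test, adjusted p = 1.00). Junction genes that S1P signalling acts on were above 0 in 6 of 9 genes, with 0 called and a median of 0.12. Cdh5, the endothelial cadherin, was at 243 and 342 CPM in STINGECKO and 343 and 284 in WT, and Ctnnb1, beta-catenin, at 683 and 553 against 506 and 506. Ptk2, focal adhesion kinase, was at 317 and 380 against 301 and 270 CPM, and Cldn5 had a log2 fold change of 0.12 (SE 0.15).

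**Figure D5:**
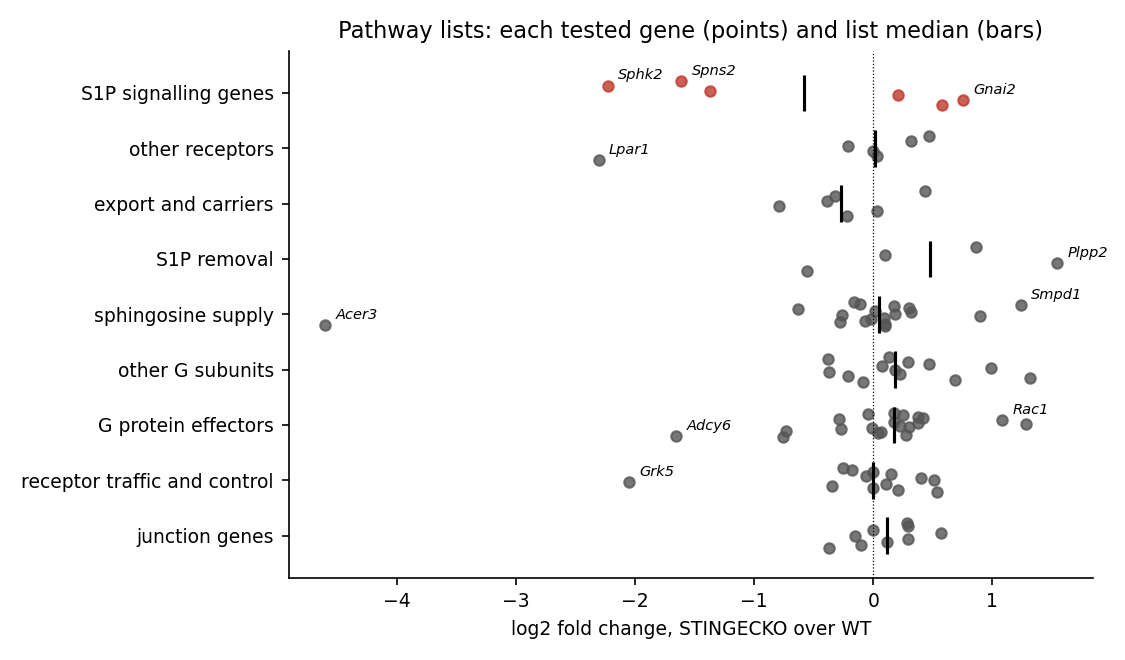
Log2 fold change of STINGECKO over WT for every tested gene of the S1P signalling set (red) and of 8 other pathway lists (grey), with black bars for list medians. Medians of the 8 lists lie between -0.27 and 0.48, and Acer3, at -4.60, lies farthest from 0. The edgeR quasi-likelihood test called 0 of these genes, and DESeq2 called Acer3, beside 0.651% of all genes tested.

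The genes whose values over the 4 libraries were most like those of S1pr1, by the root mean square difference of centred log2 CPM among 4050 genes of at least 50 CPM, were Dennd5a (0.0177), Tmem109 (0.0285) and Sae1 (0.0306). Dennd5a was at 242, 267, 211 and 238 CPM in STINGECKO 1, STINGECKO 2, WT 3 and WT 5. With only 4 libraries, such likeness is a description of these values.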

How the data were processed

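Reads of 4 libraries of brain endothelial cells were aligned and counted by the authors. The tools were TopHat2 2.0.12, Bowtie2 2.2.3 and HTSeq 0.6.0 and the build was mm9, per the submitters' processing notes. Per the file headers, the deposited columns used here are raw counts of reads for each gene. Positions of 89.7% of 17858 genes were identical to GENCODE M21 on GRCm38, whose coordinates are printed. How strand was set, and which annotation was counted, is not given in the sources used here. A table lists a gene with 0 reads in a library only where the other library has at least 5. Tables were merged by gene identifier, and 20 symbols altered by a spreadsheet were restored. All 4 count columns were assigned to samples.

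The genotype test was the quasi-likelihood test of edgeR 4.0.16 in R 4.3.3, after filterByExpr (minimum count 10) and TMM scaling of listed totals, with Benjamini-Hochberg adjustment over 13365 genes, threshold 0.05. DESeq2 1.42.0, limma-voom (limma 3.58.1), other scalings and filters, genes of one table entered as 0, a fit blocked by table and fits that left out 1 library each were alternatives. Lengths are unions of M21 exons. One read was 0.0537, 0.0451, 0.0466 and 0.0486 CPM in STINGECKO 1, STINGECKO 2, WT 3 and WT 5 before TMM.

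The genes and lists were chosen with earlier results of these data known. By rule, the text names the 7 genes, Tmem173, the 4 genes of highest mean level in each list and those with an unadjusted p under 0.05 or nearly absent from one genotype. For S1pr1 it adds the 3 genes of most similar values. Klf2, Gna12, Gnai1, Gnai3, S1pr2 and the genes low in STINGECKO 2 were named for the comparisons made. One gene that the rule would name is not reported here.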

Additional observations from a re-analysis of the deposited data

How the results depend on the processing

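The direction of S1pr1, Spns2, Sphk2, Sgpl1 and Gnai2 was kept in all 15 alternatives run for each, and 0 of the 6 genes passed the adjusted threshold in any. Gna13 turned to -0.23 with limma-voom and to -0.12 with the block by deposited table; the cause was not tested. Leaving out each library gave log2 fold changes from 0.13 to 0.28 for S1pr1, 0.28 to 1.10 for Gnai2, -4.67 to -0.51 for Spns2, -4.18 to -1.43 for Sphk2, -4.30 to -0.47 for Sgpl1 and -1.77 to 1.42 for Gna13. Fits without a library take their spread from the other genotype alone, and the lone library is assumed to vary alike. Genes called numbered 87 of 13365 (0.651%) with DESeq2 and 33 (0.247%) with the edgeR likelihood ratio test, against 0. Among the 89 pathway genes tested, DESeq2 called 1, against 0. Genes whose genotypes did not overlap numbered 3 to 6 among the S1P signalling genes and 55 to 70 in the pathway lists when a library was left out, against 3 and 30 with all; with fewer libraries, overlap is less likely by construction, and 61.9% to 77.8% of all genes did not overlap then. No paired analysis was possible because the genotypes share no replicate numbers; the block by table, the nearest fit, called 0 genes. Depth limits Sphk1, which has at most 3 reads in the libraries listed.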

Other observations

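A few further genes of S1P metabolism and receptor control were low or unevenly listed. Mfsd2b, the S1P exporter of red cells and platelets, had 278 reads in STINGECKO 1, 1 in STINGECKO 2, 112 in WT 3 and 126 in WT 5, a log2 fold change of 0.44 (SE 2.16; edgeR quasi-likelihood test, adjusted p = 1.00), while summed erythroid markers were 1230, 2860, 2500 and 1310 CPM. The highest of these markers was Hba-a1, at 941, 2454, 1990 and 1017 CPM in STINGECKO 1, STINGECKO 2, WT 3 and WT 5. Another, Alas2, was lowest in STINGECKO 2, at 124.8, 84.1, 207.5 and 99.0 CPM. STINGECKO 2 also had 13.2% of genes at 0 reads. The part of red cells in the Mfsd2b reads was not tested. Sgpp2, an S1P phosphatase, was not tested, being listed only for STINGECKO 2 (1 read) and WT 5 (56 reads). Cd69, a membrane protein that removes S1pr1 from the surface of lymphocytes, was likewise listed only for STINGECKO 1 (0 reads) and WT 3 (97 reads). These genes were named after their values were seen.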
